A study of Mus musculus with 16 samples.

Results

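Heat shock chaperones and co-chaperones are described here through 10 named genes: Dnajb1, Dnaja1, Dnajb4, Hsph1, Hsp90aa1, Hspa8, Hspa4l, Bag3, Hsf1 and Chordc1. A member was taken from the probe sets whose single gene symbol in the platform annotation was its own, and the brightest such probe set was used where there were several. By this rule 9 of the 10 were measured, among 19938 genes in all, and Hsf1 was not analysed here. Brain RNA from 8-week-old male mice had been hybridised to 16 Affymetrix Mouse Gene 1.0 ST arrays, which summarise each gene's exons into a log2 value. There were 4 groups of 4 arrays: naive C57BL/6, naive TNF knockout, and both genotypes 24 h after the middle cerebral artery was permanently occluded (pMCAO), which deprives the brain downstream of it of blood. Naive mice are not described as operated on, so surgery and occlusion cannot be told apart. Replicate arrays are numbered in the labels without a statement that each is a separate animal, and if they are not, the p-values measure only a spread that may be technical. Means are given ± SD over 4 arrays, and changes are log2 differences ± SE from limma.

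Molecular chaperones bind unfolded or aggregating proteins and use ATP to refold them or pass them on for degradation. J-domain proteins bring the client to an HSP70, exchange factors of the HSP110 and BAG families release it, and HSP90 with its co-chaperones completes the maturation of kinases and receptors. Most of these genes are inducible through heat shock factor 1, the product of Hsf1, which is released from HSP90 and HSP70 when misfolded protein accumulates. In ischaemic brain, chaperone induction is known above all from neurons and glia at the edge of the infarct.

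The array medians over all probe sets were 6.01 to 6.05. Tnf, the gene named as deleted, read 5.01 to 5.72 in the 8 C57BL/6 arrays and 6.14 to 6.99 in the 8 labelled TNF knockout, which goes against the label. The labels do not say which part of Tnf was removed, and probes that miss it cannot check the label. The latter are therefore called arrays labelled TNF knockout. Sample names begin with KL42 in every C57BL/6 array and with KL76 or KL82 in those labelled TNF knockout, so the prefix, whose meaning the labels do not give, and the genotype label cannot be told apart. Neuron markers had mean levels of 10.66 to 10.80 in all arrays. Reactive astrocyte markers separated naive from stroke arrays in both genotypes, at 5.99 to 6.27 against 6.87 to 7.67. In RNA from a whole piece of tissue, fewer cells of a type and less RNA per cell cannot be told apart.

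The first comparison asks how the members responded to the occlusion in C57BL/6 mice. After stroke 2 of 9 rose, Dnajb1 and Dnajb4, and 0 fell (limma with Benjamini-Hochberg adjustment over all genes, threshold 0.05). Of all genes tested, 1.68 percent passed in either direction, 1.34 percent upwards and 0.336 percent downwards. At an unadjusted p under 0.05 the count was 5 of 9 members, against 17.1 percent of all genes. Every one of the 9 estimates lay above 0, from 0.02 to 0.42, with a median of 0.26 against -0.01 over all genes. The stroke and naive arrays did not overlap for 3 of 9 members, Dnajb1, Dnajb4 and Bag3, all higher after stroke, where 5.03 percent of all genes were higher and 3.23 percent lower without overlap. The count rested on single arrays: it was 1 without naive array 3 or without stroke array 2, 3 or 4, and 4 without stroke array 1. It was 0 when only the C57BL/6 arrays were fitted, with Dnajb1 at adjusted p = 0.065 and Dnajb4 at adjusted p = 0.086. Calls over all 19938 genes moved too, from 334 with all arrays to 107 without stroke array 3 and 639 without stroke array 1.

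**Figure D1:**
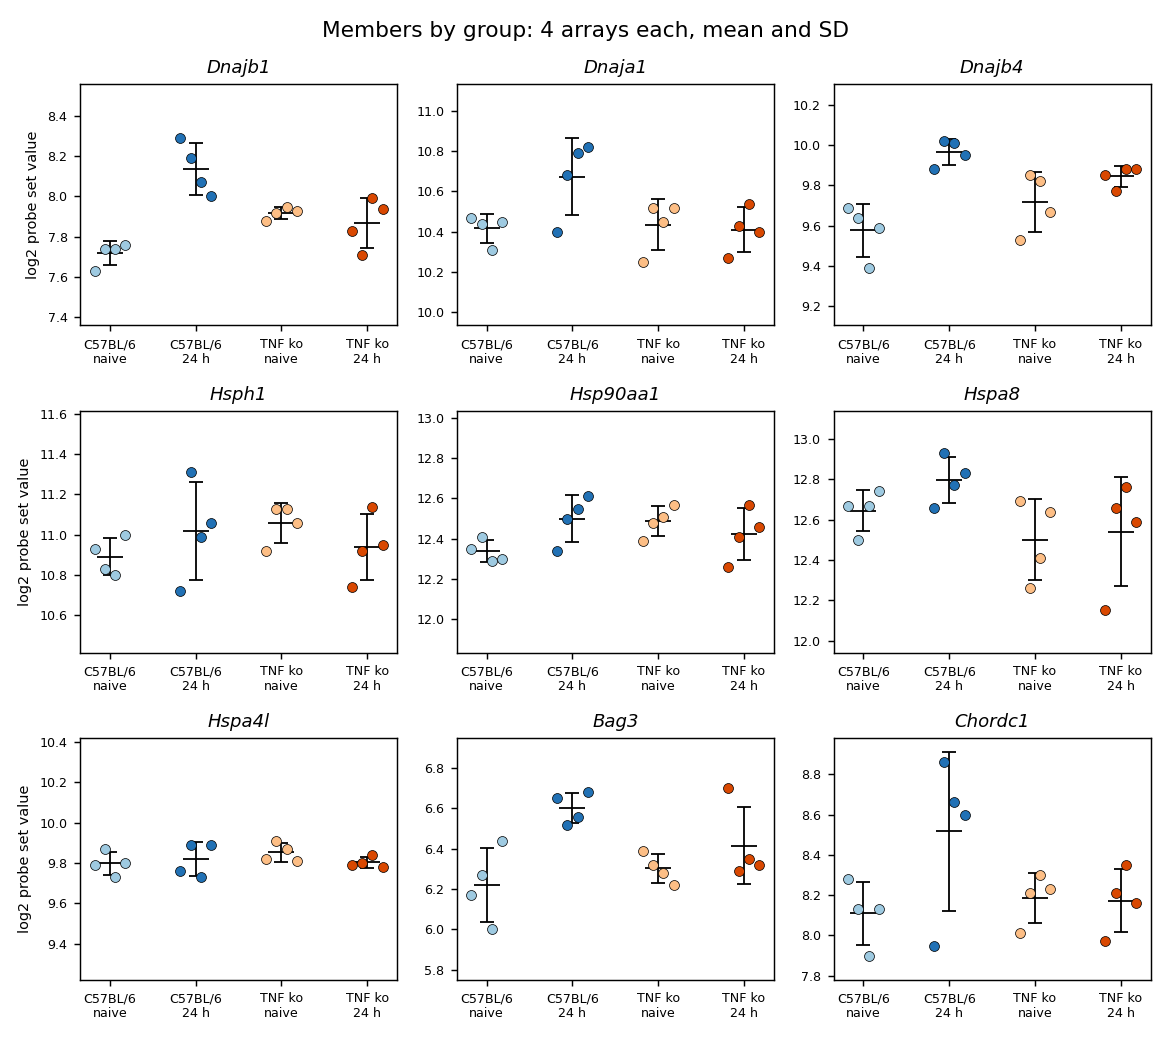
Log2 probe set values of the 9 measured members (vertical axis; every panel spans the same 1.2 log2 units) in the 4 groups, with 1 point per array in order of array number and bars for the mean and SD of 4 arrays. The C57BL/6 stroke arrays lie above the naive ones without overlap for Dnajb1, Dnajb4 and Bag3, and Chordc1 has a single low stroke array at 7.95.

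Among the J-domain proteins, Dnajb1 encodes the classical stress-inducible HSP40 that stimulates HSP70. In naive C57BL/6 mice its arrays 1 to 4 read 7.63, 7.74, 7.74 and 7.76, and after stroke 8.29, 8.19, 8.07 and 8.00. All 4 stroke arrays were above all 4 naive ones. Dnajb1 rose by 0.42 ± 0.08, which is 1.34-fold (95% interval 0.25 to 0.59 on the log2 scale), with adjusted p = 0.011. The call held whichever of the 16 arrays was left out. In the arrays labelled TNF knockout the naive values were 7.88, 7.92, 7.95 and 7.93, and the stroke values 7.83, 7.71, 7.99 and 7.94. These stroke arrays overlapped the naive ones on both sides, and the estimated change was -0.05 ± 0.08 (adjusted p = 0.94).

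Dnajb4 encodes a close relative of Dnajb1 that also works with cytosolic HSP70. Its naive C57BL/6 arrays read 9.69, 9.64, 9.39 and 9.59 and its stroke arrays 9.88, 10.02, 10.01 and 9.95. Again no stroke array fell within the naive range. Dnajb4 rose by 0.39 ± 0.09, or 1.31-fold (adjusted p = 0.024). Leaving out each of the 16 arrays in turn kept the call 12 times. It missed the threshold without naive array 3 (adjusted p = 0.086) or without stroke array 2, 3 or 4 (adjusted p = 0.067, 0.081 and 0.051). Arrays labelled TNF knockout read 9.53, 9.85, 9.82 and 9.67 in the naive group and 9.85, 9.77, 9.88 and 9.88 after stroke. The 2 ranges overlapped, and the difference was 0.13 ± 0.09 (adjusted p = 0.77).

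Dnaja1 encodes a farnesylated J-domain protein that acts with Hspa8 on newly made proteins. In C57BL/6 mice its stroke arrays read 10.40, 10.68, 10.79 and 10.82 against 10.47, 10.44, 10.31 and 10.45 in naive arrays. Stroke arrays 2 to 4 were above the naive range and stroke array 1 was within it. The difference was 0.26 ± 0.10 (adjusted p = 0.18), and without stroke array 1 it was 0.35 (adjusted p = 0.039). In arrays labelled TNF knockout the difference was -0.03 ± 0.10. The probe set used here has an ID that lies among those of genes on another chromosome than Dnaja1 (0 of 10 neighbours shared its chromosome), so the signal may be shared with a near-identical copy. The dimmer probe set with Dnaja1 as its only symbol had 10 of 10 neighbours on the gene's own chromosome. It gave 0.28 in C57BL/6 mice (adjusted p = 0.10) and -0.06 with the TNF knockout label. A probe set named for both Mir207 and Dnaja1 was not used in any comparison. Its differences were -0.175 in C57BL/6 mice, the other way, and 0.028 with the TNF knockout label.

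Hspa8 encodes the constitutive HSP70 of the cytosol, which also strips clathrin from vesicles at synapses. Its C57BL/6 arrays read 12.67, 12.50, 12.67 and 12.74 before and 12.66, 12.93, 12.77 and 12.83 after stroke. Stroke arrays 2 to 4 lay above the naive range, and stroke array 1 lay inside it. The difference of 0.15 ± 0.12 did not pass (adjusted p = 0.54), and its interval was -0.10 to 0.40. The arrays labelled TNF knockout spread more widely than the C57BL/6 arrays for this gene, from 12.26 to 12.69 in naive and from 12.15 to 12.76 in stroke arrays, with a difference of 0.04 ± 0.12. The other 2 Hspa8 probe sets gave differences of 0.17 and 0.15 in C57BL/6 mice and -0.07 each with the TNF knockout label, so the sign with that label depended on the probe set. All neighbours of both were on other chromosomes than Hspa8.

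Hsp90aa1 encodes the inducible cytosolic HSP90. In C57BL/6 mice it read 12.35, 12.41, 12.29 and 12.30 in naive and 12.34, 12.50, 12.55 and 12.61 in stroke arrays. Stroke array 1 again fell within the naive range while the other 3 lay above it. The difference was 0.16 ± 0.08 (adjusted p = 0.31). In arrays labelled TNF knockout it was -0.06 ± 0.08, from 12.39 to 12.57 in naive arrays and 12.26 to 12.57 after stroke. The 3 Hsp90aa1 probe sets gave 0.13 to 0.16 in C57BL/6 mice and -0.06 to -0.05 with the TNF knockout label, and the probe set with 9 of 10 neighbours on the chromosome of the gene gave 0.13.

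Chordc1 encodes a zinc-binding co-chaperone that docks on HSP90. Its naive C57BL/6 arrays read 8.28, 8.13, 7.90 and 8.13, and its stroke arrays 7.95, 8.86, 8.66 and 8.60. Stroke array 1 was near the bottom of the naive range, and the other 3 all exceeded the highest naive array. With all arrays the difference was 0.41 ± 0.14 and did not pass (adjusted p = 0.16); without stroke array 1 it was 0.60 (adjusted p = 0.0051). Under the TNF knockout label the arrays read 8.01, 8.21, 8.30 and 8.23 in naive and 7.97, 8.21, 8.35 and 8.16 in stroke mice, a difference of -0.02 ± 0.14. Those stroke arrays covered the whole naive range.

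Of the HSP110 exchange factors, which release clients from HSP70 and dissolve aggregates, Hsph1 read 10.93, 10.83, 10.80 and 11.00 in naive and 10.72, 11.31, 10.99 and 11.06 in stroke C57BL/6 arrays. The stroke arrays extended past the naive range at both ends. The difference was 0.13 ± 0.11 (adjusted p = 0.57), and with the TNF knockout label it was -0.12 ± 0.11. Hspa4l, a relative of Hsph1 first known from testis and kidney, stayed between 9.73 and 9.91 in all 16 arrays. Its differences were 0.02 ± 0.07 and -0.05 ± 0.07, and the intervals of -0.12 to 0.16 and -0.19 to 0.09 bound the change in each.

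Bag3 links HSP70 to the autophagic removal of aggregates. The naive C57BL/6 arrays read 6.17, 6.27, 6.00 and 6.44 and the stroke arrays 6.65, 6.52, 6.56 and 6.68. The groups did not overlap, yet the difference of 0.38 ± 0.10 fell just short of the threshold (adjusted p = 0.057). Settings in which it passed included leaving out naive array 4 (0.46, adjusted p = 0.033), stroke array 1 of the TNF knockout label (adjusted p = 0.031), array 1 of both stroke groups (adjusted p = 0.041) or the dimmest genes (adjusted p = 0.029), and trended and robust variances (adjusted p = 0.038). Stroke array 1 of the TNF knockout label, alone in its group with the KL76 prefix, read 6.70. The other 3 read 6.29 to 6.35, against 6.22 to 6.39 in naive arrays. The difference there was 0.11 ± 0.10, and 0.02 without stroke array 1.

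Sequences around the start sites were searched because heat shock factor 1 binds arrays of alternating GAA and TTC units, the heat shock element. RefSeq promoter windows (GRCm38.p6), from 250 bases before to 50 after an annotated start, covered 7 of the members with 12 windows, several of them overlapping. An element of 3 alternating units with 2 bases between neighbouring units, starting with either unit so that both strands are covered, was in windows of 2 of the 7 members, Chordc1 and Hsph1, and in those of 0.662 percent of all 27025 genes (0.603 percent of all 32851 windows). The forms with 2 units, GAA then TTC or TTC then GAA at the same spacing, are contained in every 3-unit match. They were in windows of 5 of the 7 members and in those of 4587 of all 27025 genes (15.1 percent of all windows). The runs that follow are written 5′ to 3′ on the strand of the gene, with the matched units and the bases between them in capitals. They are shown because Chordc1 and Hsph1 carry the 3-unit matches while Dnajb4 rose with a 2-unit match.
Chordc1: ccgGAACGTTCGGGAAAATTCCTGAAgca
Hsph1: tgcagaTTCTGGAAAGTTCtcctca
Dnajb4: tcgctgTTCTAGAAagtaca
Bag3: ggaccaGAAGTTTC
Dnaja1: cctctaGAAAATTCtacgag
The Chordc1 run (chr9:18292260-18292288, + strand) holds 5 alternating units without a break, from base -4 to base 19 around its start, counted without a base 0. The Hsph1 run (chr5:149636282-149636306, - strand) holds 3 units at bases 16 to 28 after the nearer of its annotated starts. The Dnajb4 run (chr3:152193846-152193865, - strand), the Bag3 run (chr7:128523619-128523632, + strand) and the Dnaja1 run (chr4:40722338-40722357, + strand) hold 2 units each. None of the 2 Dnajb1 windows nor the Hspa4l window holds these letters. A match describes the sequence and does not show binding.

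The second comparison asks the same question in the arrays labelled TNF knockout. There 0 of 9 members passed, against 0.642 percent of all genes, and at an unadjusted p under 0.05 the count was also 0, against 8.39 percent. The 9 differences ran from -0.12 to 0.13 with a median of -0.03, and 3 of them were above 0. None of the 9 had groups without overlap, where 2.80 percent of all genes were higher and 3.07 percent lower without overlap. The intervals reached up to 0.12 for Dnajb1, 0.31 for Dnajb4, 0.32 for Bag3 and 0.29 for Chordc1. For Dnaja1, Hsph1 and Hsp90aa1 they reached 0.17, 0.10 and 0.11. Each of these lay below the change estimated in C57BL/6 mice, which has an error of its own. For Hspa8 and Hspa4l they reached 0.29 and 0.09, above the C57BL/6 estimates of 0.15 and 0.02. Such a reading is not a test of a difference between the labels, which follows below. Stroke and naive arrays of this label differ in their name prefixes, and the main fit has no prefix term. Prefix and stroke are therefore partly mixed here and in comparisons built on these changes. The count stayed 0 of 9 under all alternatives run, among them the prefix as a term. Values within the prefixes rest on 1 array on a side. For Dnajb1 they were -0.09 in KL76 (1 stroke and 3 naive arrays) and -0.05 in KL82 (3 stroke arrays and 1 naive array). For Dnajb4 they were 0.12 and 0.17, for Bag3 0.37 and 0.10, for Chordc1 -0.20 and 0.01, and for Hspa8 -0.30 and 0.03.

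**Figure D2:**
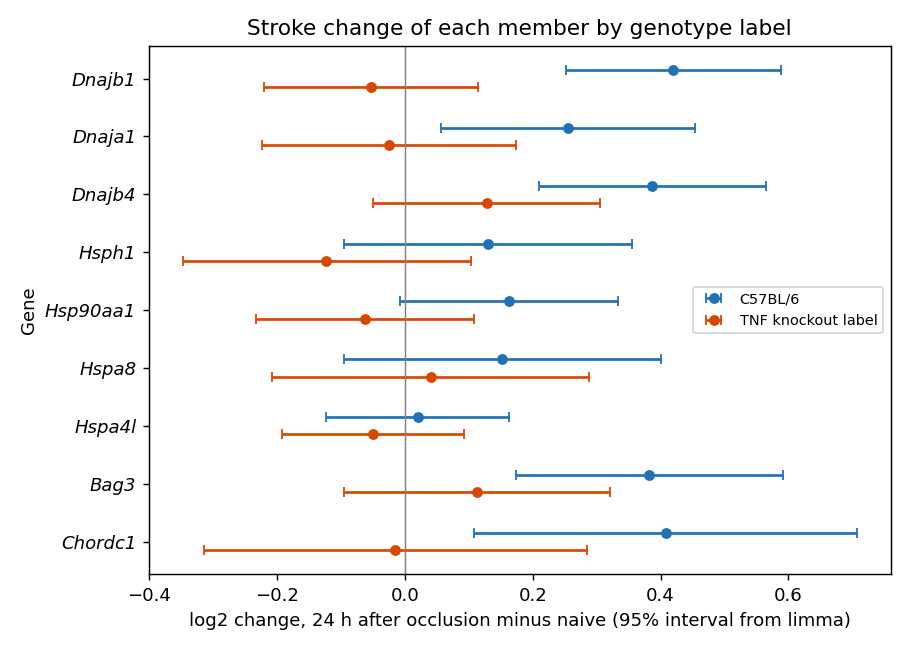
Log2 change from naive to 24 h after occlusion (horizontal axis) of each member in C57BL/6 arrays (blue) and arrays labelled TNF knockout (orange); points are limma estimates from 4 arrays a group and bars their 95% intervals. All 9 C57BL/6 estimates are above 0, from 0.02 to 0.42, while those of the other arrays lie between -0.12 and 0.13.

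Whether the stroke change differed between the genotype labels was tested directly. No member passed, nor did any of the 19938 genes (0 percent). At an unadjusted p under 0.05 it was 2 of 9 members, Dnajb1 and Dnajb4, against 7.42 percent of all genes. Trended and robust variances called 4 genes, of which 0 were members, so a different response is not shown for any member. Every one of the 9 estimates was lower with the TNF knockout label, by 0.07 to 0.47, with a median of -0.26 against -0.01 over all genes. Several other lists moved the same way in this contrast. Estimates were also below 0 for all 8 endothelium markers (median -0.27), all 8 resting astrocyte markers (median -0.10), 8 of 9 resident microglia markers (median -0.33) and all 14 genes for chaperonins and prefoldin (median -0.12). The downward direction is therefore not particular to the members. Over all genes it was not general, with 9728 of 19938 above 0. Most cell markers were below 0, with 25 of 92 above it. Of the 117 other genes of the chaperone network, described below, 27 were above 0. Among the markers, 3 of 12 for neurons and 2 of 7 for oligodendrocytes were above 0. Higher shares were above 0 for neutrophil and monocyte markers (7 of 10, median 0.03) and reactive astrocyte markers (5 of 10, median 0.04). The part of all these markers in the downward direction was not tested. Of the members, Dnajb1 had the largest estimate, -0.47 ± 0.11 (interval -0.71 to -0.24, unadjusted p = 0.00051, adjusted p = 0.41). Chordc1 followed with -0.42 ± 0.20 and Dnaja1 with -0.28 ± 0.14. Bag3 was at -0.27 ± 0.14, Dnajb4 at -0.26 ± 0.12, Hsph1 at -0.25 ± 0.15 and Hsp90aa1 at -0.23 ± 0.12. Hspa8 at -0.11 ± 0.17 and Hspa4l at -0.07 ± 0.10 were nearest to 0.

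The genotype labels were also compared at each state, in comparisons that share their arrays with those above. Among naive mice 0 of 9 members passed (0.386 percent of all genes), and Dnajb1 was the member with arrays that did not overlap, 7.88 to 7.95 with the TNF knockout label against 7.63 to 7.76 in C57BL/6 (0.20 ± 0.08, adjusted p = 0.22). Of all genes 4.50 percent were higher and 4.15 percent lower without overlap. At an unadjusted p under 0.05 it was 1 of 9, against 16.6 percent. Of the 9 naive estimates 8 were above 0, with a median of 0.082 against -0.005 over all genes. They ran from -0.145 for Hspa8 to 0.203 for Dnajb1, with Hsph1 at 0.17 and Hsp90aa1 at 0.15. Each difference of the stroke changes above is the estimate after stroke minus the naive estimate, so it holds both. After stroke 0 of 9 passed as well (0.436 percent of all genes, 0.271 percent downwards), and all 9 estimates were below 0, from -0.35 to -0.02. Of 92 cell markers 30 had estimates above 0 in the same contrast, and 5 passed the threshold, all lower with the TNF knockout label. These were the myelin gene Cnp (-0.46 ± 0.08), the tight junction gene Cldn5 (-0.54 ± 0.11), Olig1 and Gpr17 of the oligodendrocyte lineage (-0.45 ± 0.09 and -0.52 ± 0.11) and the macrophage gene Cd68 (-0.38 ± 0.08). Estimates were below 0 for all 7 oligodendrocyte markers (median -0.34) and all 8 endothelium markers (median -0.20). Of the 5 oligodendrocyte precursor markers 2 were above 0, Pdgfra (0.07) and Cspg4 (0.05). Above 0 were also 7 of 10 reactive astrocyte markers (median 0.085), 7 of 12 neuron markers (median 0.01) and 5 of 10 neutrophil and monocyte markers. The part of all these markers in the member values was not tested. Dnajb1 was again without overlap, now with the lower values in the arrays labelled TNF knockout, 7.71 to 7.99 against 8.00 to 8.29 (-0.27 ± 0.08, adjusted p = 0.17), where 2.76 percent of all genes were lower and 3.04 percent higher without overlap. At an unadjusted p under 0.05 it was 4 of 9, against 11.3 percent. Without C57BL/6 stroke array 1, Chordc1 was lower by 0.53 with the TNF knockout label (adjusted p = 0.027), the sole member to pass in that fit. For Dnajb1 the order of the group means was naive C57BL/6 (7.72 ± 0.06), stroke with the TNF knockout label (7.87 ± 0.12), naive with that label (7.92 ± 0.03) and stroke C57BL/6 (8.14 ± 0.13); the middle 2 overlapped. As a mean over both genotype labels, stroke raised 1 of 9 members, Dnajb4 by 0.26 ± 0.06 (adjusted p = 0.022). Of all genes 2.80 percent passed, 1.78 percent upwards. This call was lost without C57BL/6 stroke array 3, without naive array 1 of the TNF knockout label, or without stroke array 4 of that label (adjusted p = 0.050, 0.054 and 0.050). Bag3 at 0.25 ± 0.07 had adjusted p = 0.066 and Dnajb1 at 0.18 ± 0.06 had adjusted p = 0.092.

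Single arrays moved several members together. In C57BL/6 stroke array 1, 7 of 9 members lay below their group mean, by 0.15 on average over the 9, while the mean over all genes lay 0.02 above. This array had the lowest reading of its group for Dnaja1, Dnajb4, Hsph1, Hsp90aa1, Hspa8 and Chordc1 but the highest for Dnajb1. It also had the lowest mean of its group for reactive astrocyte markers (6.87, against 7.04 to 7.67 in the other 3), for activated microglia and macrophage markers (5.23, against 5.40 to 5.69) and for resting astrocyte markers (9.83, against 10.02 to 10.04). The same array was lowest for resident microglia (6.52), endothelium (7.14) and pericyte and smooth muscle markers (6.16), and highest for oligodendrocyte precursor markers (7.68). Their part in the member values was not tested. In stroke array 1 of the TNF knockout label 7 of 9 members were below the mean as well, by 0.10 on average. Bag3 was instead the highest of its group. That array alone of its group has the KL76 prefix, so array and prefix cannot be told apart. Low arrays were not limited to the stroke groups. In naive C57BL/6 array 3, 7 of 9 members were below their group mean, by 0.098 on average, with all genes 0.018 above. Leaving that array out lowered the count of members that rose, as given above. In naive array 1 of the TNF knockout label 7 of 9 were below, by 0.065 on average. Without array 1 of both stroke groups, an alternative chosen after seeing the data, 5 of 9 members rose in C57BL/6 mice: Chordc1 (0.60, adjusted p = 0.0039), Dnaja1 (0.35, adjusted p = 0.034), Bag3 (0.37, adjusted p = 0.041), Dnajb1 and Dnajb4. Calls over all 19938 genes also went up in that fit, from 334 to 682. In the arrays labelled TNF knockout it was still 0 of 9, in a fit with no KL76 stroke array left.

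After the group means were removed, 23 of the 36 member pairs correlated positively over the 16 arrays, with a median Pearson r of 0.33. The closest pairs were Hsph1 with Chordc1 (r = 0.89), Dnaja1 with Hsp90aa1 (r = 0.88) and Dnaja1 with Chordc1 (r = 0.83). Dnajb1 stood outside this set, with r of -0.28 to Chordc1 and -0.32 to Dnaja1, and Bag3 too, with -0.47 to Hspa8. These coefficients are descriptions, since members share each array's RNA and normalisation.

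**Figure D3:**
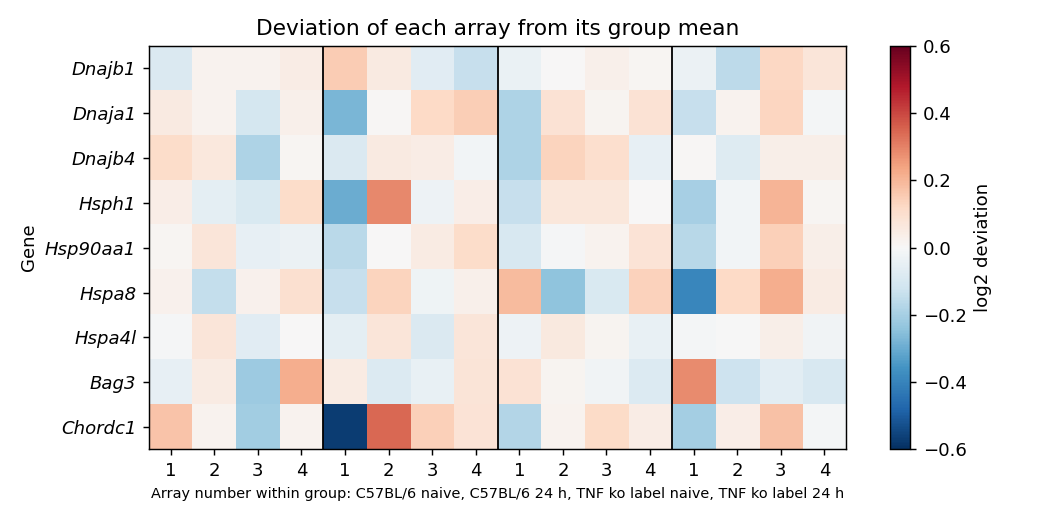
Deviation of each of the 16 arrays (columns, in 4 blocks by group) from its group mean for each member (rows), as a log2 difference on a colour scale from -0.6 (blue) to 0.6 (red). C57BL/6 stroke array 1 is blue for 7 of 9 members and red for Dnajb1 and Bag3, and stroke array 1 of the TNF knockout label is red for Bag3.

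Genes whose profile over the 16 arrays was most like that of the members that rose are given as a description. For Dnajb1 they were the anthrax toxin receptor gene Antxr2 (Pearson r = 0.91), the sialidase gene Neu4 (0.87), Naprt (0.87), the chaperonin subunit gene Cct2 (0.86) and Napepld (0.86). For Dnajb4 they were Mc4r (0.91), the lysosomal membrane gene Lamp2 (0.91), Pitpnb (0.90), Nckap1l (0.89) and Etfdh (0.89).

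The wider chaperone network was read from 9 lists with 117 measured genes outside the members, some of them in more than 1 list. In C57BL/6 mice 3 of the 117 rose and 0 fell (1.68 percent of all genes passed), with a median of 0.10. They were Hspa2, an HSP70 abundant in testis and also made in brain (0.37 ± 0.08, adjusted p = 0.021), Fkbp5, an HSP90 partner induced by glucocorticoids (0.44 ± 0.11, adjusted p = 0.041), and Lamp2 (0.37 ± 0.08, adjusted p = 0.025). In arrays labelled TNF knockout 0 of the 117 passed, with a median of -0.03, and these 3 read 0.09 ± 0.08, 0.21 ± 0.11 and 0.16 ± 0.08. The test of the difference passed for none of the 117.

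By role, 1 of 11 other HSP70 genes rose in C57BL/6 mice. The stress-inducible Hspa1a, which a near-identical copy Hspa1b makes uncertain, gave 0.42 ± 0.11 (adjusted p = 0.064) in these mice and 0.38 ± 0.11 (adjusted p = 0.21) with the TNF knockout label, in both cases without overlap of the groups. As a mean over both labels Hspa1a rose by 0.40 ± 0.08 (adjusted p = 0.0072). Of 19 other HSP90 genes and partners 1 rose, and Stip1, which bridges HSP70 and HSP90, was at 0.28 ± 0.11 (adjusted p = 0.19). Among 23 other J-domain genes 0 passed, with Dnajc12 at 0.40 ± 0.11 (adjusted p = 0.079). Among 9 other exchange factors 0 passed, with a median of 0.00.

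Of 14 genes for chaperonins and their partner prefoldin 0 passed in C57BL/6 mice, though 13 of the 14 estimates were above 0 with a median of 0.17. Cct6a, a subunit of the ring that folds actin and tubulin, was at 0.29 ± 0.08 (adjusted p = 0.079), and it rose as a mean over both labels (0.22 ± 0.06, adjusted p = 0.046). Of 9 small heat shock genes 0 passed in either genotype, and Hspb6 gave 0.32 ± 0.11 in C57BL/6 mice and 0.44 ± 0.11 (adjusted p = 0.091) with the TNF knockout label. As a mean over both labels Hspb6 rose by 0.38 ± 0.08 (adjusted p = 0.0091). Of 10 other heat shock factors and regulators 0 passed, with Hsf2 at 0.21 ± 0.10. Of 19 genes of the unfolded protein response of the endoplasmic reticulum 0 passed, with medians of 0.07 and -0.08 in the 2 genotypes, and Pdia4, an oxidoreductase of that compartment, at 0.33 ± 0.10 in C57BL/6 mice (adjusted p = 0.12). Of 9 ubiquitin and autophagy partners 1, Lamp2, rose.

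**Figure D4:**
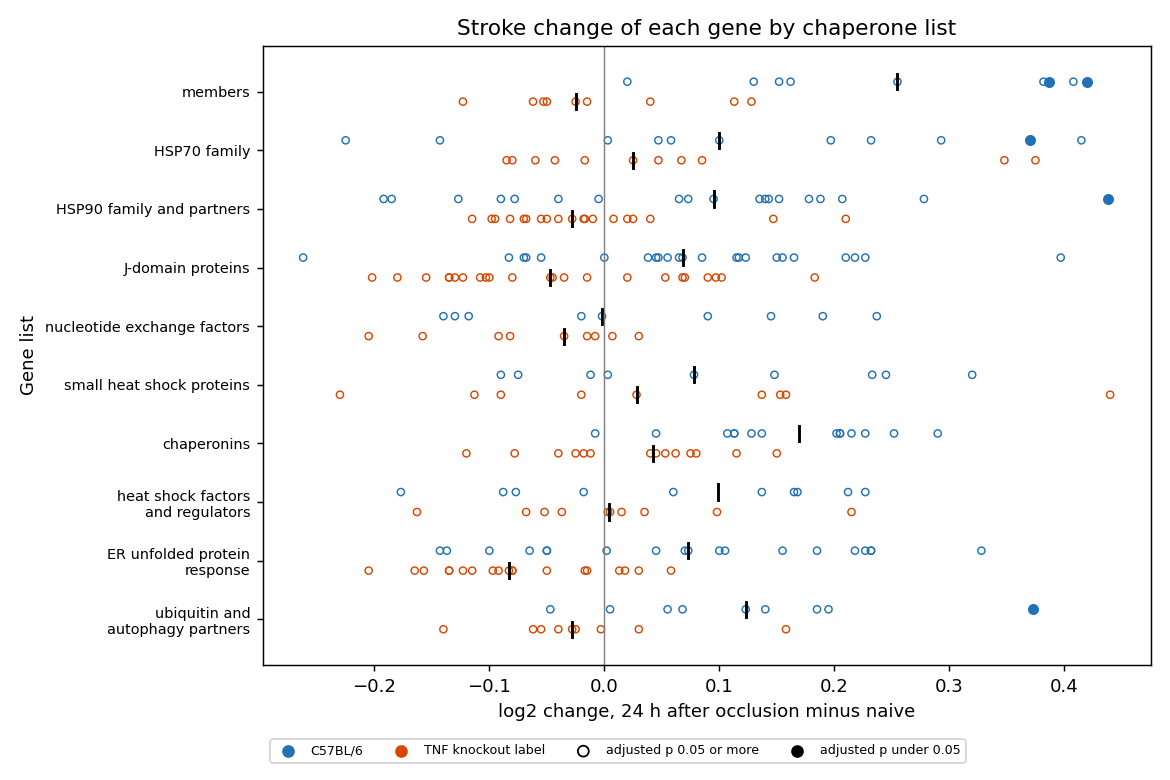
Log2 change from naive to 24 h after occlusion (horizontal axis) of each gene in the members and in 9 lists of the chaperone network, in C57BL/6 arrays (blue) and arrays labelled TNF knockout (orange); filled points passed adjusted p under 0.05 and black ticks are list medians. The 5 filled points, all in C57BL/6 arrays, are Dnajb1, Dnajb4, Hspa2, Fkbp5 and Lamp2.

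Cell type markers were read in the same contrasts as the members. In C57BL/6 mice 8 of 10 reactive astrocyte markers and 4 of 9 activated microglia and macrophage markers rose after stroke; with the TNF knockout label 7 of 10 and 4 of 9 rose, where 0 of 9 members did. The mean level of the activated microglia and macrophage markers was 4.68 to 4.85 in naive C57BL/6, 5.23 to 5.69 in stroke C57BL/6, 4.60 to 4.77 in naive and 5.12 to 5.30 in stroke arrays labelled TNF knockout. Neuron markers had 0 of 12 past the threshold in either genotype, and as a mean over both labels 1 of 12 fell, the tubulin gene Tubb3 (-0.27 ± 0.06, adjusted p = 0.016). Neutrophil and monocyte markers also had 0 of 10 in either genotype, and as a mean over both labels 3 of 10 rose, Clec4d (0.75 ± 0.15), Il1r2 (0.41 ± 0.08) and Cxcr2 (0.71 ± 0.15). These 10 markers had mean levels of 3.99 to 4.13 and 3.94 to 4.04 in the 2 naive groups and 4.13 to 4.86 and 4.28 to 4.52 after stroke. Their part in the chaperone values was not tested.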

How the data were processed

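Total RNA from frozen brain, extracted with Trizol and biotin-labelled with the GeneChip WT Terminal Labeling Kit per the labels' protocols, was hybridised to 16 arrays. What the authors deposited is 1 log2 value per probe set and array, with array medians of 6.01 to 6.05. Tools listed in the submitters' processing notes are RMA, GCRMA, GCOS and Partek, with no roles or versions. The build behind the probe sets is not known here and no detection call was used; coordinates come only from RefSeq's GRCm38.p6 promoter table. The number of arrays limits precision. GEO's platform annotation gave 1 symbol to 21789 of 28944 probe sets, several to 1621 and none to 5534. Single-symbol probe sets, the brightest per gene, gave 19938 genes, without a filter on dim ones. A model of 4 group means over all 16 arrays was fitted with limma 3.58.1 (R 4.3.3; lmFit, eBayes; two-sided, Benjamini-Hochberg over all genes, threshold 0.05) and tested on simulated data. Of 229 list memberships, 215 were measured. Members and lists were chosen with earlier results of these data known. Named genes are all members, list genes past the threshold or among the 4 smallest p of a list, and the 5 most similar profiles. Figures were drawn with Python 3.11.15 and matplotlib 3.10.9. Alternatives were quantile normalization, median centring, a filter on dim genes, averaging all single-symbol probe sets of a gene, trended and robust variances, only the groups compared, the replicate number and the name prefix as terms, a threshold of 0.01 and leaving out each array; own-chromosome probe sets, and leaving out array 1 of both stroke groups, were chosen after seeing the data. The replicate numbers were not taken as pairs because the labels state no pairing. Deviations of same-numbered arrays of different groups had r of -0.075 to 0.34, above 0.1 in 10 of 24 pairs. Different-numbered arrays were not compared, so these values cannot decide whether arrays with the same number share a factor. Counts with the number as a block are given below.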

Additional observations from a re-analysis of the deposited data

Results flagged for a closer look

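In naive C57BL/6 mice array 1 stood apart for Dnajb1, at 7.63 against 7.74 to 7.76 in the other 3 arrays. In the C57BL/6 stroke group array 1 stood apart on an Hspa8 probe set not used for the gene, at 12.43 against 12.68 to 12.73. In the stroke arrays labelled TNF knockout array 1, alone in having the KL76 prefix, stood apart for Bag3, at 6.70 against 6.29 to 6.35. These were 3 of 56 groups of 4 arrays tested with Dixon's ratio at its 95% critical value, and chance alone marks about 1 group in 20.

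The probe sets named for Hspa8 together with the small nucleolar RNAs Snord14c and Snord14d, hosted in its introns, were not used in any comparison. With the TNF knockout label their stroke arrays exceeded all naive arrays, by 0.39 and 0.40 on average, where the naive arrays read 7.36 to 7.81. In C57BL/6 mice the same probe sets differed by -0.07 each. The difference between the genotypes was not tested, and the 2 probe sets gave nearly equal values.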

How the results depend on the processing

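In C57BL/6 mice the count of 2 members past the threshold was 0 with only the groups compared, 0 at a threshold of 0.01 and 5 without array 1 of both stroke groups, and 1 to 4 over the 16 fits that left out 1 array. For the mean over both labels the count of 1 was 2 without the dimmest genes, 2 with trended and robust variances, 2 with the name prefix as a term, 2 without array 1 of both stroke groups, 0 at a threshold of 0.01 and 0 to 2 over the 16 fits. After stroke between the labels it was 0 to 1. With the replicate number as a block it was 3, 0 and 1 for stroke in C57BL/6 mice, with the TNF knockout label and for the mean, adding Bag3 (adjusted p = 0.042). The changes of Dnajb1 and Dnajb4 in C57BL/6 mice kept their direction under all alternatives run, at 0.37 to 0.47 and 0.33 to 0.43. Signs of estimates near 0 turned without a call: with quantile normalization Hspa4l in C57BL/6 mice (-0.016), Chordc1 with the TNF knockout label (0.014), Dnaja1 between naive labels (-0.014) and, between labels after stroke, Hsp90aa1 (0.002) and Hspa4l (0.007); with median centring Hsph1 as a mean (-0.005) and Dnaja1 between naive labels (-0.005); with the prefix term Hspa8 with the TNF knockout label (-0.137) and Hsph1 as a mean (-0.029); with the mean of the probe sets Hspa8 with the TNF knockout label (-0.033); and without array 1 of both stroke groups Dnaja1 (0.022) and Chordc1 (0.053) with that label. Over the 16 fits that left out 1 array the ranges that crossed 0 were -0.004 to 0.049 for Hspa4l in C57BL/6 mice, -0.087 to 0.022 for Dnaja1, -0.040 to 0.170 for Hspa8 and -0.074 to 0.053 for Chordc1 with the TNF knockout label, -0.045 to 0.054 for Hsph1 as a mean, -0.018 to 0.079 for Dnaja1 between naive labels, -0.183 to 0.014 for Hsph1 and -0.044 to 0.009 for Hspa4l between labels after stroke, and -0.193 to 0.018 for Hspa8 in the difference of the stroke changes. Over all genes, the 334 calls in C57BL/6 mice ranged from 107 without stroke array 3 to 639 without stroke array 1, and were 682 without array 1 of both stroke groups and 98 with only the groups compared. The cause of these shifts was not tested.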
